A study of Mus musculus with 28 samples.

Results

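Slpi and 9 mouse clade B serpin genes, which encode inhibitors of proteases, were followed by RNA sequencing in cultured cells and subcutaneous tumors of the murine lung cancer line 3LL. The 10 genes (Slpi, Serpinb9e, Serpinb9, Serpinb9b, Serpinb9f, Serpinb9g, Serpinb6a, Serpinb6b, Serpinb1a and Serpinb8) were taken by symbol from a table of 43143 rows, in which each had 1 row. The 28 libraries formed 7 groups of 4. Cultured 3LL (Lewis lung carcinoma) cells were wild-type (WT), KEAP1-KO (Keap1 disrupted) or DKO (Keap1 and Nrf2 disrupted), and tumors came from 2 bilateral transplantation experiments. In Experiment A, WT cells were placed in the left flank and KEAP1-KO cells in the right flank of the same mice, and in Experiment B, KEAP1-KO and DKO cells were placed left and right. The hosts were albino C57BL/6 male mice of 6 weeks, with their own immune cells, and the tumors were collected on day 10. Each edited genotype was a line grown from a single colony after CRISPR-Cas9 editing, and the DKO line was derived from KEAP1-KO cells, so the DKO cells also lack KEAP1. Genotype and clone therefore cannot be told apart, and cells and tumors of a genotype share the same line. Nothing in the labels states that the cell libraries came from separate cultures, so p-values for them measure only the spread between these samples.

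KEAP1 holds the transcription factor NRF2 at a low level by directing its degradation, and loss of KEAP1 lets NRF2 accumulate and switch on genes of antioxidant defence. SLPI (secretory leukocyte protease inhibitor) is a secreted protein of the whey acidic protein family that blocks neutrophil elastase and cathepsin G. Clade B serpins act mostly inside the cell, where each traps its protease by offering a bait loop and locking onto the enzyme that cuts it. Mouse Serpinb9 inhibits granzyme B, the serine protease that cytotoxic lymphocytes deliver into target cells, and mice carry several further Serpinb9 genes where humans have a single one. The study had picked Slpi and Serpinb9e as candidates on the cell libraries analysed here, so every difference that uses their values in cultured cells is described without a test, and tests of both are given only between tumors, which grew from the same lines.

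Values were deposited on the scale log2(normalized count + 4), on which a value of 2 stands for no reads. Library depth ranged from 4222376 to 7524278 reads. Whole reads could be recovered for all low values. The labels were first checked on the targeted genes. The Keap1 row fell in KEAP1-KO libraries, with log2 differences from WT of -1.86 ± 0.07 (SE) in cells and -1.43 ± 0.13 in tumors of Experiment A. The Nfe2l2 symbol, the gene for NRF2, stood on 1 transcript row, which was at 5.59 ± 0.14 (SD, n = 4) in KEAP1-KO tumors and 5.59 ± 0.09 in DKO tumors of Experiment B, so it does not check the NRF2 label. Nqo1, a classical NRF2 target, was at 12.23 ± 0.22 in KEAP1-KO tumors and 5.93 ± 0.46 in DKO tumors of Experiment B. Keratin and other carcinoma markers were read in every group of cells (summed over 5 listed genes, between 2630 and 5254 normalized counts per library), whereas Napsa, the single lung epithelium marker listed of 5, stayed at or below 1.05 normalized counts in cells. The leukocyte marker Ptprc (CD45) had between 0 and 1.89 normalized counts in cell libraries.

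The rows did not all hold the same kind of feature. Slpi (ENSMUSG00000017002), Serpinb9e (ENSMUSG00000062342), Serpinb9 (ENSMUSG00000045827), Serpinb9f (ENSMUSG00000038327) and Serpinb9g (ENSMUSG00000057726) were gene rows. The other symbols stood on single transcripts that do not encode the full protein in the GENCODE vM21 annotation. These were processed transcripts for Serpinb9b (ENSMUST00000220566) and Serpinb6a (ENSMUST00000171951), a nonsense-mediated decay transcript for Serpinb6b (ENSMUST00000017184) and retained-intron transcripts for Serpinb1a (ENSMUST00000221967) and Serpinb8 (ENSMUST00000151283). Their values describe those transcripts and not the whole gene. In the RefSeq order of GRCm38.p6, 8 of the serpins lie in a cluster on chromosome 13, where Serpinb9e sits between Serpinb9d and Serpinb9f. Serpinb8 lies on chromosome 1 and Slpi on chromosome 2.

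The Serpinb9 copies are close relatives, which bears on whether their reads can be told apart. Of the 31-base stretches of the annotated Serpinb9e transcript, 46.2% also occurred in another gene, most of them in Serpinb9f. The share was 87.3% for Serpinb9f and 67.9% for Serpinb9g, and fell to 4.9% for Serpinb9, 5.0% for Serpinb9b and 0.0% for Slpi. Gm11397 held more of them than any other gene, with 74.7% of the Serpinb9f and 57.3% of the Serpinb9g stretches, against 33.3% and 23.1% in Serpinb9e. Serpinb9d, which is not a member, shared 47.1% of its stretches with other genes, and 32.2% lay in Serpinb9e. The split of reads between Serpinb9d, Serpinb9e, Serpinb9f, Serpinb9g and Gm11397 (not analysed here) is therefore uncertain, while Serpinb9, Serpinb9b and Slpi share little with other genes. The promoters show the same relatedness, and windows from 250 bases before to 50 bases after the annotated gene start (RefSeq, GRCm38.p6, printed on the gene's strand) are given for the members whose behaviour is compared most closely. Serpinb9e lies at chr13:33249358-33249657 (+), Serpinb9f at chr13:33323827-33324126 (+), Serpinb9g at chr13:33484540-33484839 (+), Serpinb9b at chr13:33027164-33027463 (+) and Slpi at chr2:164356458-164356757 (-). Capitals in Serpinb9f and Serpinb9g mark aligned bases that differ from Serpinb9e, and the other windows carry no capitals.
Serpinb9e: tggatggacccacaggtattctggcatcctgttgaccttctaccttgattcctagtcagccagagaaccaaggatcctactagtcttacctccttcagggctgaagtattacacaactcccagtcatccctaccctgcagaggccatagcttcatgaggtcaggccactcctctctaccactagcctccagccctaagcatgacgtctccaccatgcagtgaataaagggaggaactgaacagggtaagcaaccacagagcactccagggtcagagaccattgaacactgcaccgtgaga
Serpinb9f: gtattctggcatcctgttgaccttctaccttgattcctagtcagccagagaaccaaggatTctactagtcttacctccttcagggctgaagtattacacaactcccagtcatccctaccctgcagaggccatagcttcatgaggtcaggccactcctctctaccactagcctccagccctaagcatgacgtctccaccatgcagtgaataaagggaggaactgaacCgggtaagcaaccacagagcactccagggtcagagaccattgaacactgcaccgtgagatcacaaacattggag
Serpinb9g: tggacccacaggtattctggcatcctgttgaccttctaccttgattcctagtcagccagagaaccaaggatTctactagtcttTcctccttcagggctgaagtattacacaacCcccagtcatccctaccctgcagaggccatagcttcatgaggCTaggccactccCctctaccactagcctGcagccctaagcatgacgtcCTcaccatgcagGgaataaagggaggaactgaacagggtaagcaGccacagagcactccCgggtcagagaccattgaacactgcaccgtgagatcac
Serpinb9b: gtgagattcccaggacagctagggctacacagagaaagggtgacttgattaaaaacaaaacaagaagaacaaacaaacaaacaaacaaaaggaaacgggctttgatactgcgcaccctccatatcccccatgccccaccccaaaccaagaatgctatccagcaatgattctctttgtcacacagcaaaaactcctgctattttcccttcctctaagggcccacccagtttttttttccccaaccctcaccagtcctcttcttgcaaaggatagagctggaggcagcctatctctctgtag
Slpi: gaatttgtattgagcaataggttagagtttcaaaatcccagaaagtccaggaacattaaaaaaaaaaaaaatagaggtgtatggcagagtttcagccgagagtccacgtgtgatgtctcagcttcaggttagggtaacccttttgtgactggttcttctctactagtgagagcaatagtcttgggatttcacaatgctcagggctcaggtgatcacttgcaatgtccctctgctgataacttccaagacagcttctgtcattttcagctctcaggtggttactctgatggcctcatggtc
The Serpinb9f window was identical to that of Serpinb9e at 283 of 285 aligned bases (99.3%), and the Serpinb9g window at 284 of 296 (95.9%). In contrast, Serpinb9b matched at 62.6% of 163 aligned bases and Slpi at 59.1% of 208. A window was found for 9 of the 10 members (all but Serpinb1a), and 1 of the 10 windows of these genes held the core TGACNNNGC of the antioxidant response element, which NRF2 binds, on either strand. That window belonged to Serpinb6a, and 12.4% of all 32851 promoter windows held the same letters. The match is a description of these windows only, and the Nqo1 window held none either.

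Slpi was high in every KEAP1-KO group and low in every WT and DKO group. WT cells had 34.2, 28.1, 35.8 and 35.4 normalized counts in the 4 libraries, KEAP1-KO cells 400.3, 477.9, 425.3 and 471.8, and DKO cells 32.2, 31.5, 24.1 and 24.8. The KEAP1-KO cells lay far above both other lines, whose values overlapped. In tumors of Experiment A, Slpi was at 57.5, 37.1, 67.6 and 134 normalized counts in WT and at 1595, 1188, 627 and 1592 in KEAP1-KO tumors. In Experiment B it was at 348, 829, 687 and 702 in KEAP1-KO tumors and at 37.3, 37.1, 45.3 and 45.2 in DKO tumors. No KEAP1-KO tumor overlapped with a WT or DKO tumor. With the reads of a group summed and scaled by the deposited normalization of its libraries, as in all ratios of reads given here, KEAP1-KO tumors had 16.4 times the Slpi of WT tumors (95% interval 14.7 to 18.4, exact and for counting error only) and 15.4 times that of DKO tumors (13.2 to 18.03). The ratio was 13.3 (11.1 to 16.15) for KEAP1-KO over WT cells and 15.9 (13.1 to 19.3) for KEAP1-KO over DKO cells. In bulk tumor RNA, fewer cells of a type and less RNA per cell cannot be told apart.

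Serpinb9e, a Serpinb9 paralog of the mouse cluster, showed the same order with WT and DKO near 0. Over the 4 libraries of a group it had 2 reads in WT cells, 5 in DKO cells, 2 in WT tumors and 2 in DKO tumors. KEAP1-KO cells had 22.3, 17.5, 27.3 and 20.6 normalized counts. KEAP1-KO tumors had 170.1, 62.4, 30.9 and 183.0 in Experiment A and 50.9, 68.9, 65.9 and 59.9 in Experiment B. All KEAP1-KO libraries lay above all others, and the tumors of both experiments lay above the cells. The ratio of KEAP1-KO to WT tumors was 247 but with only 2 reads in the denominator its counting interval ran from 68.1 to 2050. KEAP1-KO exceeded DKO tumors 132-fold, with an interval from 36.2 to 1097. In cells, KEAP1-KO exceeded WT 39.9-fold (10.8 to 334) and DKO 17.9-fold (7.41 to 56.4).

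Serpinb9b departed from this order, because the DKO cells stayed far above WT cells. WT cells had 103.8, 105.8, 98.6 and 96.6 normalized counts on its transcript row, KEAP1-KO cells 1857, 2265, 2040 and 2171, and DKO cells 1114, 1190, 1118 and 1183. DKO cells were below KEAP1-KO cells and far above WT cells, with no overlap on either side. In tumors, WT had 80.8, 90.5, 61.2 and 62.0, and KEAP1-KO tumors had 620.3, 563.1, 436.7 and 693.0 in Experiment A. KEAP1-KO tumors of Experiment B had 323.2, 405.0, 398.7 and 439.6, and DKO tumors had 116.2, 190.6, 155.4 and 142.4. The DKO tumors thus again lay between WT and KEAP1-KO tumors, but nearer to WT. DKO exceeded WT 11.4-fold in cells (10.25 to 12.7) and 2.07-fold in tumors (1.81 to 2.37), although the DKO and WT tumors grew in different experiments.

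**Figure D1:**
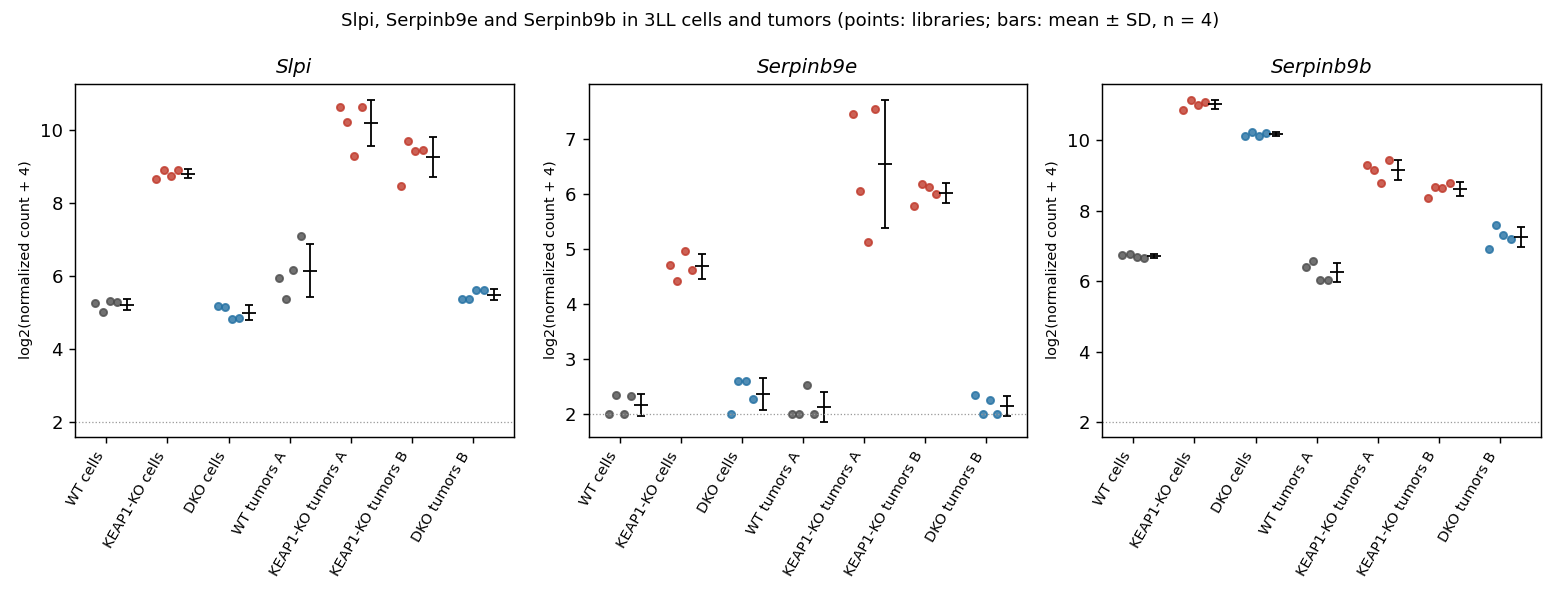
Levels of Slpi, Serpinb9e and Serpinb9b on the scale log2(normalized count + 4) in the 7 groups; each point is a library, bars give the mean and SD of 4 libraries, colours mark genotypes and the dotted line at 2 stands for no reads. Slpi and Serpinb9e are high in KEAP1-KO groups alone, whereas Serpinb9b in DKO cells averages 10.17, between 11.02 in KEAP1-KO cells and 6.72 in WT cells.

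Serpinb9f and Serpinb9g, the closest copies of Serpinb9e by promoter, were read in the same groups at a few reads per library. Serpinb9f had 0 reads over the WT cells, 17 over the KEAP1-KO cells and 3 over the DKO cells. In tumors it had 1 read in WT, 37 in KEAP1-KO of Experiment A, 18 in KEAP1-KO of Experiment B and 2 in DKO. Serpinb9g had 3, 63 and 7 reads in WT, KEAP1-KO and DKO cells. Its tumor totals were 0 in WT, 26 and 12 in KEAP1-KO of Experiments A and B, and 2 in DKO. Taking 3 reads over the group as the floor for a count of 0, and with reads scaled in this way, Serpinb9g was at least 10.04-fold higher in KEAP1-KO than in WT tumors and Serpinb9f at least 4.71-fold higher in KEAP1-KO than in WT cells. KEAP1-KO exceeded WT tumors 42.9-fold for Serpinb9f, with a counting interval from 7.23 to 1739.

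Serpinb9, the granzyme B inhibitor, was read in all libraries and moved little. Its group means ran from 71.7 ± 12.3 normalized counts (SD, n = 4) in WT tumors to 197 ± 23 in KEAP1-KO cells. The 4 Experiment A KEAP1-KO tumors (102 to 113) lay above the 4 WT tumors (55.2 to 84.8), whereas KEAP1-KO (72.3 to 112) and DKO tumors (64.0 to 109) of Experiment B overlapped. Serpinb6a, an inhibitor of trypsin-like proteases, ranged from 1287 ± 70 in DKO tumors to 3546 ± 346 in KEAP1-KO cells. Every cell library lay above every tumor.

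Serpinb6b, Serpinb1a and Serpinb8 had the opposite order in tumors. Serpinb1a inhibits neutrophil elastase and cathepsin G, Serpinb8 inhibits furin, and Serpinb6b is a close relative of Serpinb6a. Serpinb8 had 56.6, 30.5, 36.6 and 25.5 normalized counts in WT tumors and 6.67, 17.3, 9.66 and 6.81 in Experiment A KEAP1-KO tumors. In Experiment B it had 19.95, 21.4, 24.3 and 21.5 in KEAP1-KO and 31.8, 37.1, 37.2 and 34.1 in DKO tumors. The groups did not overlap within either experiment, and in cells Serpinb8 never exceeded 3.77. Serpinb6b had 6.29, 14.3, 9.14 and 14.4 in WT tumors against 0 to 2.31 in Experiment A KEAP1-KO tumors, and 0 to 4.06 in KEAP1-KO against 5.12 to 13.4 in DKO tumors of Experiment B. Serpinb1a had 8.49 to 23.4 in WT tumors and 0 to 9.25 in Experiment A KEAP1-KO tumors, and these ranges overlapped. In Experiment B, its KEAP1-KO (0.998 to 7.91) and DKO tumors (6.82 to 15.5) overlapped as well. Cultured cells had at most 1.95 normalized counts of Serpinb6b and 12.3 of Serpinb1a. Unlike in tumors, Serpinb1a was higher in KEAP1-KO than in WT cells, with 29 against 3 reads and no overlap (8.04-fold, 2.49 to 41.25). DKO cells had 11 reads.

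**Figure D2:**
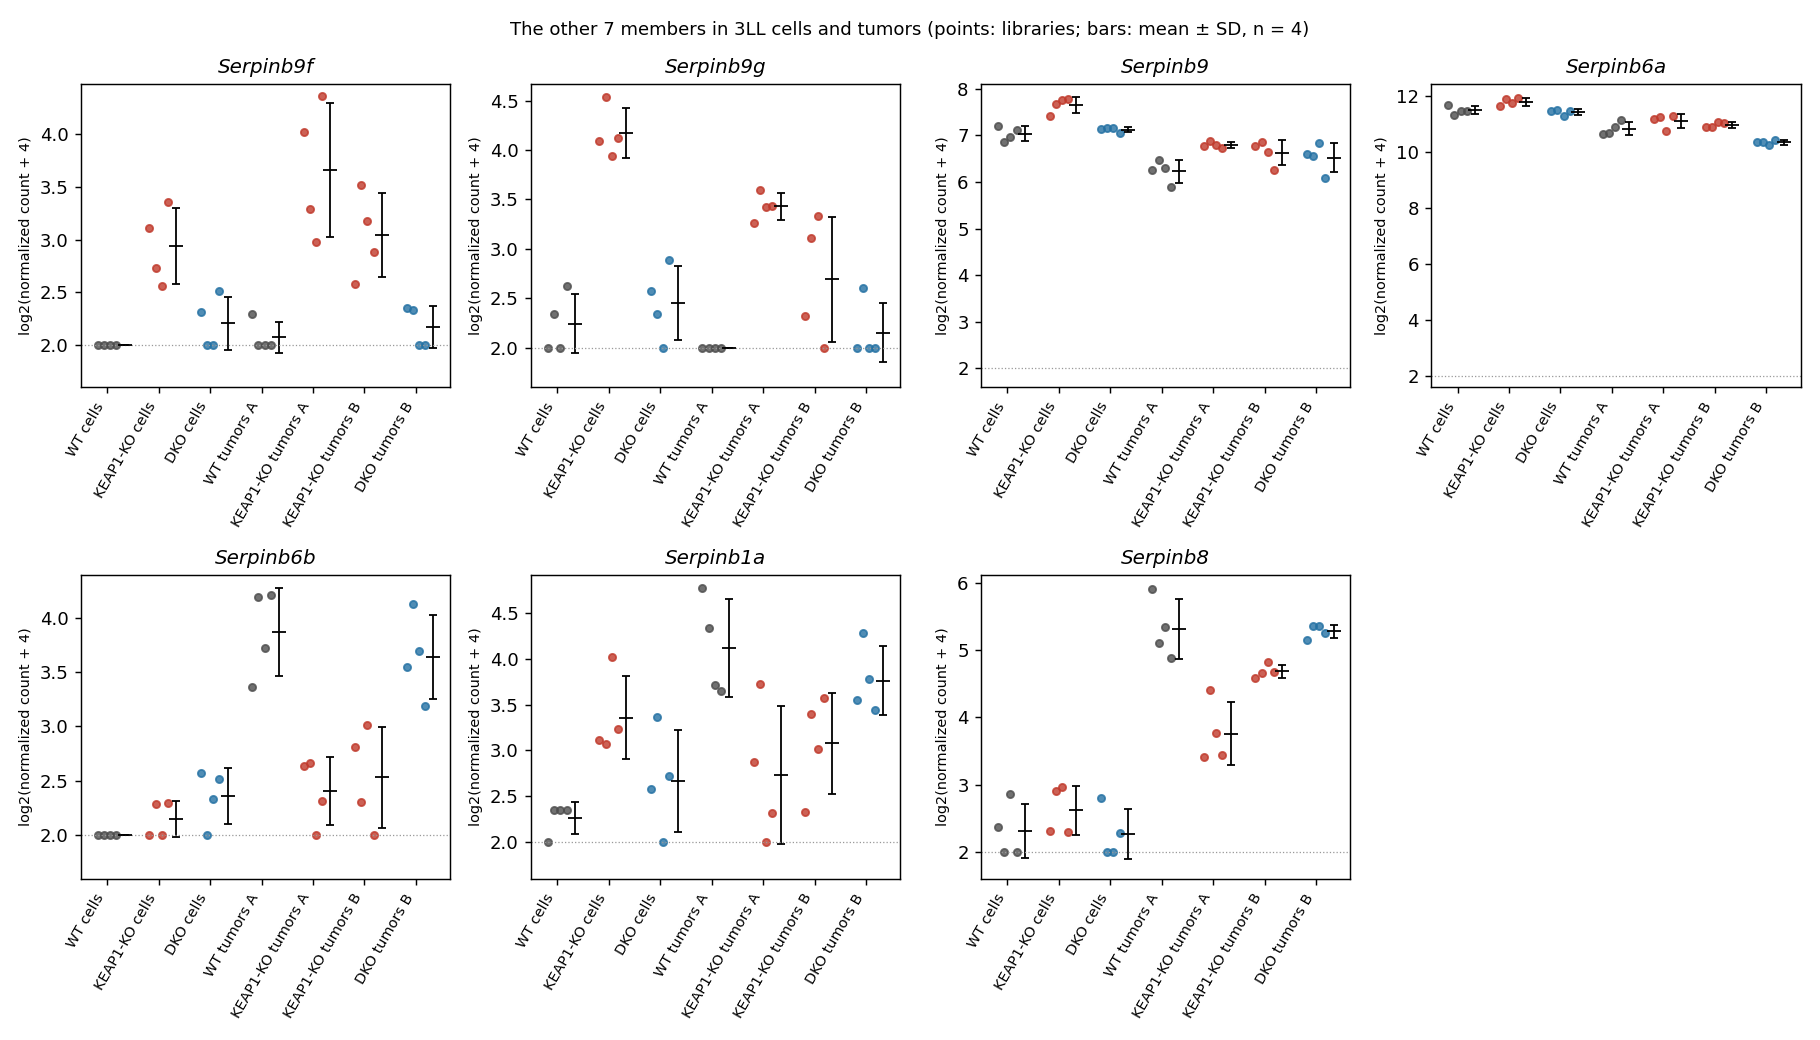
The other 7 members on the same scale and in the same groups; points are libraries, bars the mean and SD of 4 libraries, and the dotted line at 2 stands for no reads. Serpinb9f and Serpinb9g rise from the floor in KEAP1-KO groups, Serpinb9 and Serpinb6a are read in every library, and Serpinb6b, Serpinb1a and Serpinb8 are highest on average in WT tumors.

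The first comparison asked how loss of KEAP1 in the cancer cells changed the members in tumors of Experiment A. In limma fits of all 16 tumors, with Benjamini-Hochberg adjustment over 34215 rows, 13.1% of rows passed the threshold of 0.05, and 9 of the 10 members did. Slpi rose by a log2 difference of 4.06 ± 0.35 (SE, adjusted p = 1.08e-06), Serpinb9e by 4.41 ± 0.41 (1.9e-06) and Serpinb9b by 2.91 ± 0.17 (1.87e-08). Serpinb9f rose by 1.59 ± 0.31 (adjusted p = 0.0021), Serpinb9g by 1.43 ± 0.29 (0.00311) and Serpinb9 by 0.56 ± 0.17 (0.0346). Serpinb8 fell by 1.55 on the log2 scale (SE 0.24, adjusted p = 0.000276), Serpinb6b by 1.47 (SE 0.30, 0.00339) and Serpinb1a by 1.39 (SE 0.39, 0.0277). Serpinb6a, at 0.27 ± 0.12, did not pass (adjusted p = 0.161). Serpinb9e, Serpinb9f and Serpinb9g passed the filter on low values only through KEAP1-KO tumors, and Serpinb6b and Serpinb1a only through WT and DKO tumors, so their passing is not separate from their difference. Log2 differences of such low rows understate the fold. The calls of Serpinb9 and Serpinb1a were not firm: Serpinb9 lost it without any of 7 of the 8 tumors, with adjusted p from 0.0582 (without WT replicate 3) to 0.101 (without WT replicate 4), and it kept its call without WT replicate 2. Serpinb1a lost it without WT replicate 1 (adjusted p = 0.0933), WT replicate 2 (0.0742), KEAP1-KO replicate 3 (0.0791) or KEAP1-KO replicate 4 (0.0815), and in a fit of the 2 groups alone (0.0785).

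The second comparison asked what changed when NRF2 was removed as well, in Experiment B, where 8.86% of all rows and 5 of the 10 members passed. Slpi fell by 3.77 (SE 0.35, adjusted p = 4.48e-06), Serpinb9e by 3.87 (SE 0.41, 1.29e-05), Serpinb9b by 1.36 (SE 0.17, 7.65e-05) and Serpinb6a by 0.62 (SE 0.12, 0.00262). Serpinb6b rose by 1.11 ± 0.30 (adjusted p = 0.0297), a call that was lost when any of 5 single tumors was left out (adjusted p up to 0.0976, without KEAP1-KO replicate 4), with the replicate number as a block (0.0608) and in a fit of the 2 groups alone (0.0742). Serpinb9f was at -0.87, with a 95% interval from -1.52 to -0.22, and the adjusted p was 0.0992. Serpinb9g (-0.54, interval -1.16 to 0.07), Serpinb9 (-0.11, -0.47 to 0.24), Serpinb1a (0.68, -0.15 to 1.52) and Serpinb8 (0.60, 0.09 to 1.10) did not pass either. The median log2 difference over the members was 0.997 in Experiment A and -0.58 in Experiment B, against -0.03 and 0.00 over all rows.

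KEAP1-KO tumors grown beside WT tumors and those grown beside DKO tumors carried the same line, which allowed a check between experiments. With limma, none of the 10 members passed (0.164% of all rows did). An unadjusted p under 0.05 was found for 4 of them and for 2632 of all 34215 rows. Serpinb8 was 0.93 ± 0.24 higher in Experiment B without overlap (adjusted p = 0.222), and Slpi was lower, at -0.94 ± 0.35 (adjusted p = 0.525). In each experiment, the KEAP1-KO tumor lowest in Slpi (replicate 3 in A, replicate 1 in B) was also the lowest of its group in Serpinb9e, Serpinb9b, Serpinb9f and Serpinb6a. Between DKO tumors of Experiment B and WT tumors of Experiment A, 2 members passed against 10.6% of all rows. Serpinb9b was 0.996 ± 0.17 higher in DKO (adjusted p = 0.0012) and Serpinb6a was lower, at -0.48 (SE 0.12, adjusted p = 0.0137), a call lost under quantile normalization (-0.35, adjusted p = 0.0537). Slpi (-0.65, interval -1.40 to 0.10) and Serpinb9e (0.02, -0.84 to 0.88) did not pass. These direct differences do not separate experiment from genotype, and the KEAP1-KO tumors grown in both experiments were not used to adjust them.

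**Figure D3:**
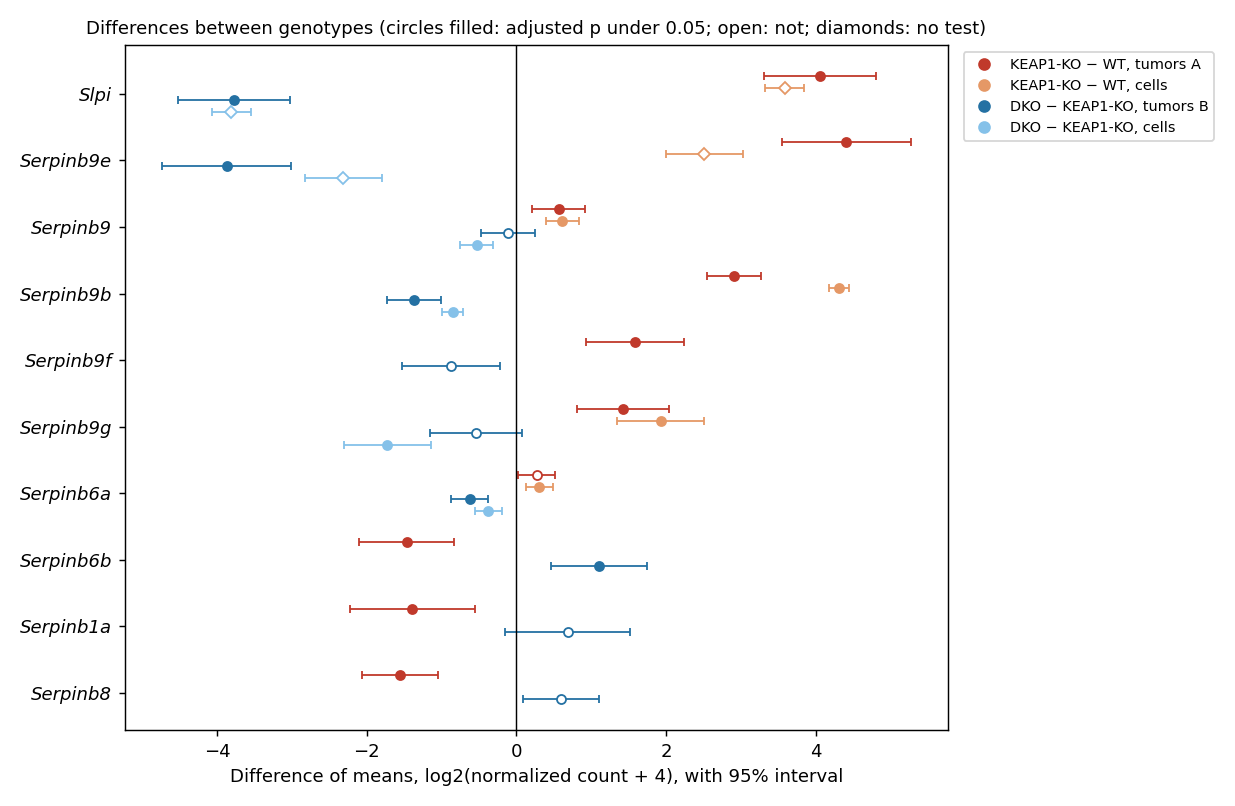
Differences between genotypes for the 10 members, as differences of mean log2(normalized count + 4) with 95% intervals; filled circles passed an adjusted p of 0.05, open circles did not, and diamonds stand for values given without a test. Slpi lies at 4.06 and -3.77 in tumors, whereas Serpinb9b lies at 4.31 after KEAP1 loss in cells and at -0.85 after NRF2 loss.

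In cultured cells, where hosts contribute no RNA, 6 members passed the filter on low values in fits of the 12 cell libraries, Serpinb9e and Serpinb9g only through the KEAP1-KO cells. The passing of Serpinb9e and Serpinb9g is therefore not separate from their differences. For KEAP1-KO against WT cells, 15.5% of all rows passed. Slpi and Serpinb9e differed by 3.59 ± 0.12 and 2.51 ± 0.24 (described, not tested). Serpinb9b rose by 4.31 ± 0.06 (adjusted p = 3.37e-13), Serpinb9g by 1.93 ± 0.27 (0.000269), Serpinb9 by 0.61 ± 0.10 (0.00105) and Serpinb6a by 0.31 ± 0.08 (0.0237). Serpinb6a lost its call when any of 5 single libraries was left out, with adjusted p up to 0.0724 (without KEAP1-KO replicate 4). For DKO against KEAP1-KO cells, which share the KEAP1-KO libraries with the comparison before, 8.83% of all rows passed. Slpi and Serpinb9e differed by -3.81 ± 0.12 and -2.31 ± 0.24 (described, not tested). Serpinb9g fell by 1.72 (SE 0.27, adjusted p = 0.00108), Serpinb9b by 0.85 (SE 0.06, 1.9e-06), Serpinb9 by 0.53 (SE 0.10, 0.00516) and Serpinb6a by 0.37 (SE 0.08, 0.0128). Between DKO and WT cells, where 17.7% of all rows passed, Serpinb9b was 3.46 ± 0.06 higher in DKO (adjusted p = 9.62e-12). Serpinb9 (0.09, interval -0.13 to 0.31), Serpinb9g (0.21, -0.37 to 0.79) and Serpinb6a (-0.07, -0.25 to 0.12) did not pass.

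Whether the paralogs followed Serpinb9e was tested on the difference between each paralog and Serpinb9e within each tumor, by an exact two-sided permutation test over 8 tumors (8 paralogs in 2 experiments, 16 tests, unadjusted, smallest possible p = 0.0286). The test treats the 8 tumors as independent although both genotypes of an experiment grew in the same mice. The labels do not tie tumors to mice, and over 4 pairs the smallest possible exact p would be 0.125, which cannot pass. In Experiment A, 7 of the 8 paralogs changed by less than Serpinb9e or the opposite way, with no overlap between WT and KEAP1-KO tumors (exact permutation p = 0.0286 each, the smallest the design allows). Serpinb9e alone did not overlap between the genotypes of either experiment, so a row that did not change at all would give the same p. The p therefore shows a change unlike that of Serpinb9e and nothing more about a paralog. The exception was Serpinb9b, whose change of 2.91 differed from that of Serpinb9e by -1.50 with an overlap (exact p = 0.0571). The change of Serpinb9f differed by -2.82, that of Serpinb9g by -2.98, that of Serpinb9 by -3.84 and that of Serpinb6a by -4.13. Serpinb6b, Serpinb1a and Serpinb8 differed by -5.87, -5.79 and -5.96. In Experiment B, Serpinb9e fell by 3.87, and the changes of Serpinb9b, Serpinb6a and Serpinb9 differed from it by 2.51, 3.25 and 3.76 without overlap (exact p = 0.0286 each). The other paralogs could not have matched that fall, because their means in KEAP1-KO tumors (3.04 for Serpinb9f, 2.69 for Serpinb9g, 2.53 for Serpinb6b, 3.08 for Serpinb1a and 4.69 for Serpinb8) lay too near the floor of 2. For them the comparison in Experiment B is no test. On the scale of summed reads, KEAP1-KO exceeded DKO tumors 9.79-fold for Serpinb9f (2.34 to 86.95) and 6.52-fold for Serpinb9g (1.45 to 60.01), and these intervals overlap with that of Serpinb9e (36.2 to 1097). The differences of Serpinb9f and Serpinb9g in Experiment A also hold only on log2(normalized count + 4), on which folds of rows near 0 reads are compressed.

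Each line could also be set beside its own tumors. As a description, mean Slpi was 0.93 higher in WT tumors than in WT cells, and higher by 1.40 and 0.46 in KEAP1-KO tumors of Experiments A and B and by 0.50 in DKO tumors. Mean Serpinb9e was 1.86 and 1.34 higher in KEAP1-KO tumors of Experiments A and B than in KEAP1-KO cells. Serpinb9g went the other way, at -0.74 in Experiment A (adjusted p = 0.0232, lost at a pseudocount of 1 and without KEAP1-KO cell replicate 2 or tumor replicate 1) and at -1.48 in Experiment B (3.92e-05). Serpinb9b was lower in tumors, with differences from the matching cells of -0.46 in WT, -1.86 and -2.40 in KEAP1-KO and -2.92 in DKO tumors. Serpinb9 (differences from -1.02 to -0.60) and Serpinb6a (-1.08 to -0.66) were lower in the tumors of every genotype. Serpinb8 was higher in the tumors of every genotype, by 1.15 to 3.02. In WT and DKO tumors, Serpinb6b was higher than in the cells by 1.87 and 1.28, and Serpinb1a by 1.86 and 1.10. Serpinb8, Serpinb6b, Serpinb1a and Serpinb9f would not have passed the filter on low values without the tumors. Their passing is therefore not separate from their differences. The share of all rows that passed was 38.8% for WT, 39.6% and 38.8% for KEAP1-KO in Experiments A and B and 43.5% for DKO, while 6, 6, 5 and 6 of the 8 members other than Slpi and Serpinb9e passed. The median of all rows lay between 0.16 and 0.23 above 0 and fell to between -0.19 and -0.07 when libraries were centred on their medians, so small differences depend on the scaling. Of the rows called, 60.3% to 63.7% were higher in tumors, and 35.3% to 43.5% after centring. No called member changed direction under either scaling, but Serpinb6a lost its call under quantile normalization in WT (-0.07) and KEAP1-KO tumors (-0.12 and -0.23). Serpinb1a in DKO tumors lost its call under quantile normalization (0.78, adjusted p = 0.104) and median centring (0.73, 0.117), and without DKO cell replicate 3 (0.0698) or DKO tumor replicate 2 (0.06). Serpinb9f in KEAP1-KO tumors of Experiment A, at 0.72 (adjusted p = 0.0279), lost its call under both scalings (0.163 and 0.146). The Slpi difference in WT tumors was 0.65 and 0.53 under these scalings, and 0.60 without WT tumor replicate 4.

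**Figure D4:**
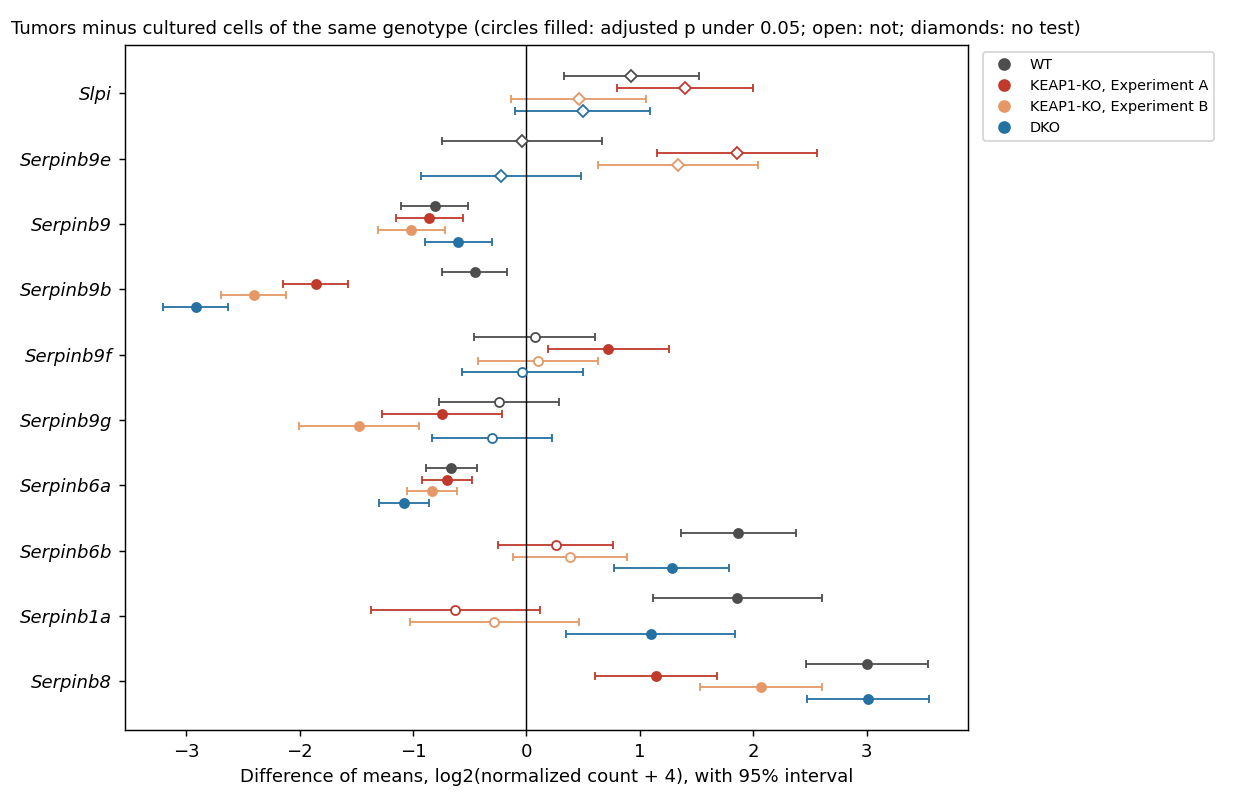
Tumors minus cultured cells of the same genotype for the 10 members, as differences of mean log2(normalized count + 4) with 95% intervals; filled circles passed an adjusted p of 0.05, open circles did not, and diamonds stand for values given without a test. Serpinb9b is lower in tumors of all genotypes, down to -2.92 in DKO, and Serpinb8 is higher in all, up to 3.02.

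In a limma fit of all 28 libraries, the effect of KEAP1 loss on Serpinb9b was smaller in tumors than in cells, by -1.40 ± 0.20 (adjusted p = 2.83e-05). Of all rows, 5.38% passed for this difference, and 4 of the 8 members other than Slpi and Serpinb9e did, but for 3 of them it is no test of a difference between tumors and cells. Serpinb1a (-2.49), Serpinb8 (-1.86) and Serpinb6b (-1.61) had 3, 4 and 0 reads over the WT cells and could not have fallen there. The value of Serpinb1a also holds its higher mean in KEAP1-KO cells (3.36) than in WT cells (2.26). For Serpinb9e, chosen on its cell values and near 0 reads in WT, the difference was 1.90, and for Slpi it was 0.47, both as descriptions. For the effect of NRF2 loss, 3.67% of all rows passed by limma and none of these 8 members did. Of the 8, 5 had an unadjusted p under 0.05, as did 5173 of all 37246 rows. Serpinb9f, Serpinb9g, Serpinb6b, Serpinb1a and Serpinb8 lay near the floor of 2 in KEAP1-KO cells, KEAP1-KO tumors of Experiment B or both, which limits how far they could fall, so for them this is no test. The others were Serpinb9b (-0.51, interval -0.92 to -0.11, adjusted p = 0.193), Serpinb9 (0.42, -0.003 to 0.83, 0.365) and Serpinb6a (-0.25, -0.56 to 0.06, 0.517). With quantile normalization the KEAP1 difference of Serpinb9b was -0.71 and lost its call (adjusted p = 0.0506). Of all rows called for the KEAP1 difference, 27.9% were higher in tumors, and 54.8% with libraries centred on their medians.

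Of 19 other clade B serpins, 5 were listed, of which 2 were tested in tumors and 2 in cells. Serpinb1b, which lies between Serpinb9b and Serpinb9c in the cluster, rose by 2.11 ± 0.24 in Experiment A KEAP1-KO tumors (adjusted p = 1.5e-05) and fell by 1.76 (SE 0.24, 0.000158) in DKO tumors of Experiment B. In cells it rose by 1.74 ± 0.33 (adjusted p = 0.00308) and fell by 1.66 (SE 0.33, 0.00683). Serpinb9c, tested in cells only, rose by 1.91 ± 0.31 (0.00096) and fell by 1.64 (SE 0.31, 0.00477). Serpinb10, on chromosome 1 beside Serpinb8, fell by 1.65 in KEAP1-KO tumors (SE 0.25, adjusted p = 0.000246) and rose by 1.59 ± 0.25 in DKO tumors (0.000601), and had no reads in KEAP1-KO and DKO cells. Serpinb1b and Serpinb9c would not have passed the filter on low values without KEAP1-KO libraries, nor Serpinb10 without WT and DKO tumors, so their passing is not separate from their differences. Serpinb9d and Serpinb2 passed no filter. Serpinb9d had 34 reads over KEAP1-KO cells against 5 over WT cells, and Serpinb2 had 17 over WT tumors against 0 over KEAP1-KO tumors of Experiment A. Reads of Serpinb9d cannot be told apart with certainty from those of Serpinb9e.

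Inhibitors of other families were mostly outside this pattern. Of 31 serpins of other clades, 11 were listed and 8 tested in tumors. In Experiment A none rose and 2 fell, Serping1 (the C1 inhibitor of complement, -1.86 ± 0.38, adjusted p = 0.00359) and Serpina3g (-1.78 ± 0.46, 0.0177), which passed the filter on low values only through WT and DKO tumors. In Experiment B, Serping1 rose by 1.53 ± 0.38 (adjusted p = 0.0189). Of 28 WAP and Kunitz inhibitors other than Slpi, 10 were listed and 5 tested in tumors, and 0 passed in either experiment by limma. An unadjusted p under 0.05 was found for 3 in Experiment A and 1 in Experiment B, against 8385 and 7070 of all 34215 rows. The lowest in Experiment A was Spint1, an inhibitor of hepatocyte growth factor activator, at -1.41 ± 0.50 (adjusted p = 0.081). As a reference, of 16 NRF2 targets 15 rose and 1 fell (Hmox1, by 0.80) in Experiment A, with a median of 1.95, and 15 fell in Experiment B, with a median of -2.34. Most of these symbols, with Hmox1 among them, stood on single transcripts. Gsta1, Gsta2 and Gsta4 passed the filter on low values only through KEAP1-KO tumors, so their passing is not separate from their differences.

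Of the proteases that these inhibitors are known to meet, granzymes other than Gzmm, perforin and mast cell enzymes were read mostly in tumors. Mean Gzmm lay between 3.43 and 4.02 on the log2 scale in cells and between 2.86 and 3.38 in tumors. Of 9 granzymes and perforin genes tested in tumors, 5 fell and 0 rose in KEAP1-KO tumors of Experiment A, with a median difference of -1.42 against -0.03 for all rows, and 2 rose in DKO tumors of Experiment B, with a median of 0.95. Gzmb, encoding granzyme B, fell by 2.78 (SE 0.37, adjusted p = 6.82e-05) and rose by 1.74 ± 0.37 (0.00591), and Prf1, the pore-forming perforin, fell by 2.06 (SE 0.33, 0.000377) and rose by 1.46 ± 0.33 (0.00893). Of the 9, 8 (all but Gzmm) passed the filter on low values only through WT and DKO tumors, so their passing is not separate from their difference. Gzmb and Gzma had 0 reads in all 12 cell libraries. Of the neutrophil and mast cell serine proteases, 4 of 12 were listed (Cma1, Mcpt1, Mcpt4 and Tpsb2) and 3 tested. Elane and Ctsg, the genes of neutrophil elastase and cathepsin G, were not among those listed. Cma1 (-1.52 ± 0.40, adjusted p = 0.018) and Tpsb2 (-1.27 ± 0.31, 0.0123), which encode mast cell enzymes, fell in Experiment A KEAP1-KO tumors, and 0 of the 3 passed in Experiment B by limma, where 0 had an unadjusted p under 0.05.

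Some markers of host cells differed between the same tumors and others did not pass. All 5 leukocyte markers fell in Experiment A KEAP1-KO tumors, and all 5 rose in DKO tumors of Experiment B. Their sum ranged from 1736 to 2123 normalized counts per library in WT tumors and from 376 to 451 in Experiment A KEAP1-KO tumors. In Experiment B it ranged from 620 to 817 in KEAP1-KO and from 1161 to 1829 in DKO tumors. In cells the sum was at most 8.41. All 9 macrophage markers fell in Experiment A and 5 of 9 rose in Experiment B, with sums from 7562 to 10763 in WT tumors, 3469 to 4238 and 5760 to 6509 in KEAP1-KO tumors of Experiments A and B, and 7835 to 10561 in DKO tumors. Neutrophil markers fell for 5 of 7 tested in Experiment A and rose for 2 of 7 in Experiment B. Among these 7, Retnlg passed the filter on low values only through WT and DKO tumors. Mast cell markers fell for 4 of 5 in Experiment A and rose for 0 of 5 in Experiment B (limma, unadjusted p under 0.05 for 0). Klrk1, the single NK cell marker tested of 5, fell by 1.74 and rose by 1.68, and it passed the filter on low values only through WT and DKO tumors. Of the T cell markers tested (Cd4 and Cd8a), 1 of 2 fell in Experiment A, and Cd4 passed the filter on low values only through WT and DKO tumors. Fibroblast markers fell for 1 of 5 in Experiment A (Dcn, which encodes decorin, by 1.78) and rose for 3 of 5 in Experiment B (Dcn by 2.85). Dcn moved the same way in cultured cells, where it fell by 1.02 in KEAP1-KO against WT (adjusted p = 0.0132) and rose by 1.67 in DKO against KEAP1-KO (0.000727), whereas Col3a1 rose by 1.25 in KEAP1-KO cells (9.05e-07) and by a further 0.40 in DKO cells (0.0125). Their sums ranged from 4140 to 9235 in WT tumors, from 1613 to 3983 and from 2213 to 2813 in KEAP1-KO tumors of Experiments A and B, from 10046 to 13152 in DKO tumors and from 212 to 622 in cells. Napsa fell by 2.31 and rose by 2.04. Acta1, the skeletal muscle marker tested, rose by 2.96 in DKO tumors (adjusted p = 0.0161, passing the filter only through WT and DKO tumors), with sums of the muscle list up to 261 in DKO and up to 24.9 in Experiment B KEAP1-KO tumors. None of the 4 endothelium markers passed by limma in Experiment A (adjusted p from 0.335 to 0.944) or B (0.307 to 0.896), with an unadjusted p under 0.05 for 0 in each, nor did the B cell marker Ms4a1 or the keratinocyte markers Krt5 and Krt14. Of the carcinoma markers, 4 were tested in tumors. Krt18 fell by 0.97 in Experiment A (adjusted p = 0.00275) and by 1.09 in Experiment B (0.00167), and it also fell in cells, by 1.79 and 1.39. Cdh1, which encodes E-cadherin and passed the filter only through WT and DKO tumors, fell by 1.12 (0.0425) and rose by 1.40 (0.0171), while Krt8 and Krt7 did not pass. The part of these cells in the serpin values was not tested.

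The rows most like Slpi and Serpinb9e were named by Pearson's correlation over the 7 group means, which is a description over few points that share libraries. Among 16564 rows with a symbol, Pgm1 (r = 0.993), Ggt7 (0.991), Ttll11 (0.980), Serpinb1b (0.977) and Gata3 (0.9754) came nearest to Slpi. Tmem266 (0.991), Cdcp1 (0.986), Abcc4 (0.985) and Bmp6 (0.984) were among the nearest to Serpinb9e. Among the members, Serpinb9e ranked 9 for Slpi (r = 0.972) and Serpinb9f ranked 23 for Slpi (0.960) and 12 for Serpinb9e (0.973). Serpinb9g (r = 0.691 with Serpinb9e) and Serpinb9b (0.498) were less alike, and Serpinb6b was opposed (-0.404).

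The Serpinb6a row was 1 of 9 listed transcripts of its gene, and the others show how far it stands for the gene. Of 7 tested in tumors, 0 passed in Experiment A by limma (differences from -0.33 to 0.31, unadjusted p under 0.05 for 1) and 1 fell in Experiment B. Of 6 tested in cells, 2 rose in KEAP1-KO against WT cells and 1 fell in DKO against KEAP1-KO cells, and these include the row that carries the symbol.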

How the data were processed

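RNA of 12 cell and 16 tumor libraries was sequenced by the authors from rRNA-depleted, directional libraries. Reads were quantified with Salmon on mouse transcripts of the GENCODE release that the study's methods name, and a genome build is not given in the sources used here. The deposited table holds log2 values, log2(normalized count + 4), per the values themselves, although the study's methods speak of TPM. Some rows are genes (9122) and some transcripts (34021), and GENCODE vM21 held 97.0% of these transcript identifiers. The extraction text in the labels names livers, whereas titles and methods describe cells and tumors, and the latter were followed. Depth was taken from whole reads, recovered at a tolerance of 0.05 for values of up to 20 reads. Rows reaching 5 normalized counts in 4 or more libraries of a fit were tested with limma 3.58.1 (R 4.3.3) with a mean-variance trend and Benjamini-Hochberg adjustment over all rows, at a threshold of 0.05. Fits used the 16 tumors, the 12 cell libraries or all 28. The paralog tests used exact permutation over tumors (scipy 1.17.1). Ratios of summed reads have exact 95% intervals for counting error only, and a count of 0 was set to 3 reads over the group. Scripts were tested on simulated data. Every member was named, with Keap1, Nfe2l2, Nqo1 and Ptprc as checks, list genes at the extremes of a list, and the 5 rows most like Slpi and Serpinb9e, of which some items are not reported here. Serpinb9c, Serpinb9d, Serpinb2, Serpina3g, Prf1, Tpsb2 and the cell values of Serpinb1b were named after their values were seen. Members and lists were chosen with earlier results of these data known. Alternatives were other filters, pseudocount, scalings, 2-group fits, a replicate block and leaving out each library. Replicate numbers did not pair the samples.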

Additional observations from a re-analysis of the deposited data

Results flagged for a closer look

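Of 67 groups of 4 libraries checked, 5 held a library whose distance to the nearest other passed Dixon's 95% limit. Chance gives about 1 in 20 for continuous values, a rate that does not hold for the first 4 below, whose libraries had 0 to 2 reads. Values are log2(normalized count + 4). Serpinb9e in WT tumor replicate 3 of Experiment A was at 2.54 with the others at 2, which is 2 reads against none. Serpinb9f in WT tumor replicate 1 was at 2.29 with the others at 2, and Serpinb9g in DKO tumor replicate 2 at 2.60 with the others at 2. Serpinb1a was at 2 in WT cell replicate 1, with the others between 2.34 and 2.35, and at 4.02 in KEAP1-KO cell replicate 3, with the others between 3.07 and 3.23.

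The effect of KEAP1 loss on Serpinb9b differed between tumors and cells by -1.40 in an interaction test (limma, adjusted p = 2.83e-05), but by -0.71 under quantile normalization, where the call was lost (0.0506). The same fit gave 1.90 for Serpinb9e, -1.61 for Serpinb6b, -2.49 for Serpinb1a and -1.86 for Serpinb8. These are values only, since Serpinb9e was chosen on its cell values and the other rows had few or no reads in WT cells. The part of host cells in the tumor values was not tested.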

How the results depend on the processing

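Of 49 single member results that were tested and passed, 37 kept their call and direction under every alternative run, and of 675 alternative values 631 kept both, 44 no longer passed (29 of them with a library left out) and 0 reversed. Counts below that involve cells leave out Slpi and Serpinb9e, which are described there without a test. With a mean of at least 25 normalized counts, which tests fewer rows, the members called numbered 5 of 6 tested for KEAP1-KO against WT tumors (25.5% of all rows). They numbered 4 of 5 for WT tumors against cells (64.8%), 5 of 5 for KEAP1-KO tumors of Experiment A (68.3%), 3 of 5 for DKO tumors (69.7%) and 2 of 5 for the KEAP1 difference between tumors and cells (10.3%). Quantile normalization left 1 for DKO against WT tumors (Serpinb6a lost its call), and the cause was not tested. Leaving out single libraries gave from 0 to 1 called members for the NRF2 difference (Serpinb9g, near the floor, without KEAP1-KO tumor replicate 3 of Experiment B) against 3.02% to 3.50% of all rows, from 7 to 9 in Experiment A (10.3% to 13.5%) and from 4 to 5 in Experiment B (7.01% to 7.57%). With the replicate block, 9 members passed in Experiment A (11% of all rows), 4 in Experiment B (7.28%, Serpinb6b at adjusted p = 0.0608), and, leaving out Slpi and Serpinb9e, 4 of 4 for KEAP1-KO against WT cells (13.7%) and for DKO against KEAP1-KO cells (7.34%), and 1 of 4 for DKO against WT cells (15.6%). Correlations of same-numbered samples lay between -0.03 and 0.03, and every sample was closest to its own number for WT and DKO cells only. Serpinb9f and Serpinb9g in KEAP1-KO tumors of Experiment A against cells lost their calls at a pseudocount of 1 (1.04 and -0.95). Depth limits every comparison with a group of a few reads, as for Serpinb9e, Serpinb9f and Serpinb9g in WT and DKO tumors.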

Other observations

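Cysteine proteases, which some clade B serpins are known to bind, formed a list of 10, all tested in tumors and 6 in cells, where 3 were at 0 in every KEAP1-KO library and 3 in every DKO library. In KEAP1-KO tumors of Experiment A, 1 rose (Casp4, an inflammatory caspase, by 1.59 ± 0.14 (SE), adjusted p = 1.43e-06, limma) and 4 fell, led by Ctsh (-2.96 ± 0.57, adjusted p = 0.00195, limma). In Experiment B, 3 rose, led by Ctss, the cathepsin S gene (1.35 ± 0.17, adjusted p = 9.49e-05, limma). Casp4 did not pass there (-0.32 ± 0.14, adjusted p = 0.203). In cells, Casp4 rose by 2.64 ± 0.33 in KEAP1-KO against WT (adjusted p = 0.000115, limma) and fell by 2.42 in DKO against KEAP1-KO (SE 0.33, adjusted p = 0.000382).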
